A study of Mus musculus with 7 samples.

Results

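Small leucine-rich proteoglycans are secreted proteins of the cartilage and bone matrix, and the 10 genes described here encode biglycan (Bgn), decorin (Dcn), asporin (Aspn), fibromodulin (Fmod), lumican (Lum), proline and arginine rich end leucine rich repeat protein (Prelp), osteomodulin (Omd), epiphycan (Epyc), osteoglycin (Ogn) and chondroadherin (Chad). They were chosen by name as well-known members of the family, not by any measured value, though earlier results of these data were known. They are 10 of the 43346 genes in the deposited counts. All 10 were found by their symbols in GENCODE release M21, and all had at least 10 counts in each mouse.

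RNA was measured in growth plates, the cartilage discs at the ends of a growing bone, from the proximal and distal ends of the tibia. The tissue came from 7 male F1 hybrids of the inbred strains C57BL/6J (B6) and CAST/EiJ (CAST), killed at 21 d of age. The mice, numbered 1, 2, 3, 4, 5, 7 and 8 in the labels, had no treatment and form 1 group, so each autosomal gene could be compared between its B6 and its CAST copy within the same cells, and all genes between mice. All 7 mice come from the same kind of cross, so an effect of the strain and an effect of the parent that passed on the copy cannot be told apart.

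Each of these proteins has a core of leucine-rich repeats, a curved structure that binds collagen, and most carry sugar chains of chondroitin, dermatan or keratan sulfate. They sit on the surface of collagen fibrils and govern how fibrils join and how thick they grow, and several also bind growth factors such as TGF-beta. The family is divided into classes by sequence. Bgn, Dcn and Aspn belong to class I, Fmod, Lum, Prelp and Omd to class II, Epyc and Ogn to class III, and Chad to class IV.

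The deposited tables hold estimated counts of reads per gene and allele. They summed to values between 14098019 for mouse 7 and 37849667 for mouse 5 (median 27603769), and 50.1% to 50.6% of each mouse's counts were assigned to the B6 allele. The 10 genes together took 0.361% to 0.444% of the counts. The labels call the sample chondrocytes, the cells that make cartilage. The 10 chondrocyte markers, which include Col2a1 and Acan, summed to between 63847 and 116315 CPM, the count of a gene relative to the scaled size of its library, but 8 osteoblast markers, led by Col1a1, summed to between 35619 and 68878 CPM. Col1a1 alone averaged 46543.5 CPM of the mean osteoblast sum of 49968.3, so that sum was mostly 1 gene. All listed markers of osteoclasts, tendon and fibroblasts, muscle, red and white blood cells, vessels and fat had at least 10 counts in every mouse, with summed levels from 53.9 to 82.4 CPM for fat to 7426 to 18239 CPM for red blood cells. The RNA was therefore that of the dissected tissue. Fewer cells of a type and less RNA per cell cannot be told apart in it, and the part of each cell type in the levels below was not tested.

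The genes of the family lie partly in clusters. On the build used for the files, GRCm38/mm10, Prelp (ENSMUSG00000041577) occupies chr1:133910304-133921414 on the minus strand and Fmod (ENSMUSG00000041559) chr1:134037254-134048277 on the plus strand. The genes of a second cluster all lie on the plus strand of chromosome 10, with Dcn (ENSMUSG00000019929) at chr10:97479609-97518143, Lum (ENSMUSG00000036446) at chr10:97565128-97572703 and Epyc (ENSMUSG00000019936) at chr10:97644068-97682454. The genes of the third also lie on the plus strand, with Aspn (ENSMUSG00000021388) at chr13:49544443-49567565, Omd (ENSMUSG00000048368) at chr13:49582462-49592822 and Ogn (ENSMUSG00000021390) at chr13:49608046-49624501, and all of them lie inside Cenpp, a centromere protein gene on the minus strand. Chad (ENSMUSG00000039084), at chr11:94565047-94569127 on the plus strand, lies in the same way inside Acsf2, an acyl-CoA synthetase gene on the minus strand. Bgn (ENSMUSG00000031375) is X-linked, at chrX:73483602-73495933 on the plus strand.

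The levels of the genes were compared first, as CPM scaled by TMM factors and divided by the length of the exons in kilobases. Fmod and Bgn were the most abundant members, and Omd, Epyc and Ogn the least. Fmod, which binds collagen fibrils and is modified with keratan sulfate, ranged from 308 to 465 CPM per kb with a median of 363, and its mean of 374 ± 54.9 (SD, n = 7) placed it at position 57 among 15833 protein-coding genes tested. Bgn, which carries chondroitin or dermatan sulfate chains, ranged from 203 to 268 CPM per kb with a median of 227 and had a mean of 234 ± 22.7 (SD, n = 7), at position 105. Chad, a cartilage protein that binds cells through an integrin, ranged from 151 to 207 CPM per kb with a median of 182 and had a mean of 183 ± 17.8 (SD, n = 7), at position 140. These most abundant members are from classes I, II and IV.

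Prelp, which has a basic end that binds heparan sulfate, averaged 93.0 ± 11.8 CPM per kb (SD, n = 7, range 83.1 to 115). Lum, best known for its part in the transparency of the cornea, averaged 72.9 ± 16.5 (SD, n = 7, range 52.9 to 104) on the same scale. Dcn, the closest relative of Bgn, averaged 64.6 ± 9.29 CPM per kb (SD, n = 7, range 47.7 to 76.5). On this scale the range of Lum overlapped those of Prelp and Dcn, which did not overlap each other. With the longest transcript as length, Prelp was higher than Dcn in only 5 of 7 mice.

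Aspn, a class I protein that has been linked to osteoarthritis, averaged 19.7 ± 5.37 CPM per kb (SD, n = 7, range 12.6 to 28.6). The other members were lower, with means of 10.6 ± 2.55 CPM per kb for Ogn, 7.57 ± 1.56 for Epyc and 5.24 ± 1.33 for Omd (SD, n = 7 each). Ogn is also known as mimecan, Epyc was first described in epiphyseal cartilage, and Omd is a keratan sulfate proteoglycan of bone. Omd had position 4869 among the protein-coding genes, and its level in single mice ran from 3.23 to 7.34 CPM per kb.

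**Figure D1:**
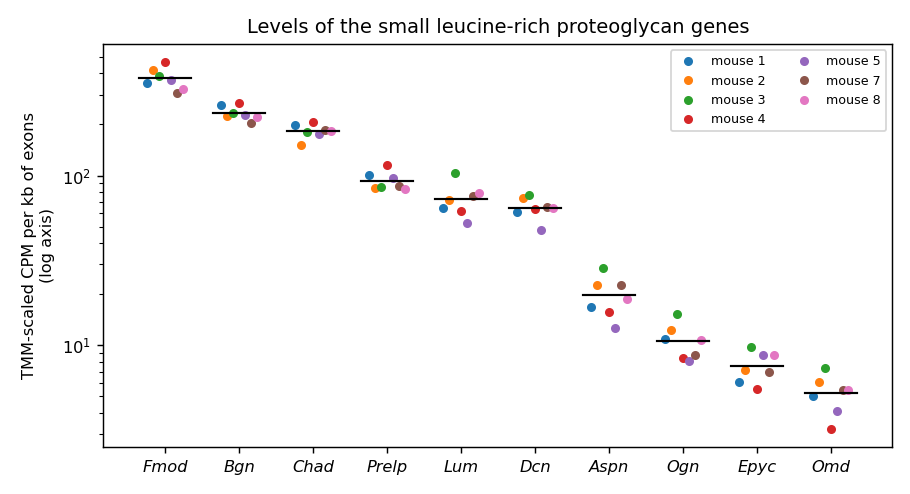
Level of each of the 10 genes in each of the 7 mice, as TMM-scaled CPM per kilobase of exons on a log axis. Points are mice, coloured by number, and black lines are means over the 7 mice. The means fall from 374 for Fmod to 5.24 for Omd, and the points of Lum overlap those of Prelp and of Dcn.

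Within each mouse, 7 of the 9 neighbouring pairs in this order differed in level beyond their spread between mice (two-sided sign-flip test, exact permutation p over 7 mice, adjusted over the 9 pairs). Fmod was 1.59-fold higher than Bgn, Bgn 1.28-fold higher than Chad, and Chad 1.97-fold higher than Prelp, each in 7 of 7 mice (exact permutation p = 0.0156, the smallest that 7 mice allow, adjusted p = 0.0234). Prelp was 1.29-fold higher than Lum in 6 of 7 mice (exact permutation p = 0.0938, adjusted p = 0.0938), and Lum 1.12-fold higher than Dcn in 5 of 7 mice (exact permutation p = 0.0625, adjusted p = 0.0703), so neither of these orders passed. The widest step was the 3.35-fold one from Dcn to Aspn, in 7 of 7 mice. The order of Lum and Dcn depended on the length used. With the longest transcript as length, Dcn was 1.11-fold higher than Lum in 6 of 7 mice (exact permutation p = 0.0781, adjusted p = 0.0879). The order of the top pair depended on the length too. The annotation lists 8 transcripts of Bgn, whose exons together span 6099 bases while the longest transcript has 2666, and with the longest transcript as length Bgn had 535 ± 52.0 CPM per kb (SD, n = 7), above the 396 ± 58.2 of Fmod in 7 of 7 mice.

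The comparison of the alleles answers how much of each gene's RNA came from the B6 and from the CAST chromosome of the same mouse. In edgeR's likelihood-ratio test with a false discovery rate (FDR) under 0.20 over all 21805 tested genes, 3 of the 10 genes were called, against 32.6% of all tested genes. Bgn, Dcn and Prelp were called, and all had more B6 than CAST counts, where 17.2% of all tested genes were called with B6 higher and 15.4% with CAST higher. The 3 of 10 was close to the share of all tested genes. Bgn is X-linked and a male carries a single X chromosome, so its call does not compare 2 active copies. Of the 9 autosomal genes 2 were called, against 6444 of the 20682 autosomal genes tested. The median log2 fold change of CAST over B6, which is negative where B6 is higher, was -0.12 over the 10 genes and 0.01 over all tested genes. The median size of the change, without its sign, was 0.19 for the 10 genes and 0.22 for all tested genes. For the 9 autosomal genes these medians were -0.08 and 0.15, against 0.02 and 0.21 for all autosomal genes tested.

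**Figure D2:**
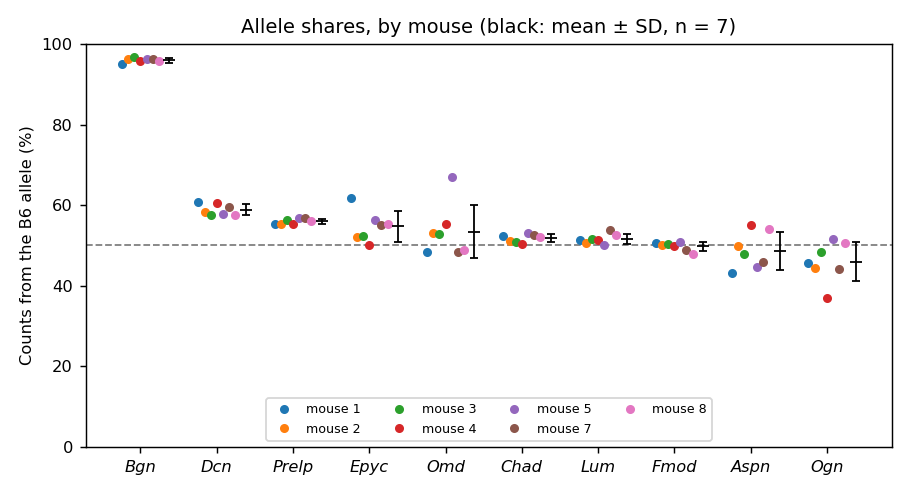
Share of each gene's counts assigned to the B6 allele, in percent from 0 to 100, in each of the 7 mice. Coloured points are mice, black bars are the mean ± SD over the 7 mice, and the dashed line marks 50%. The points of Bgn lie between 94.9% and 96.9%, those of Dcn between 57.5% and 60.7%, and those of Prelp between 55.2% and 56.8%, while the points of Fmod lie close to 50% and those of Omd, Epyc, Aspn and Ogn are widely spread.

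Both alleles of a mouse come from the same animal and library, so the test was also run with the mouse as a replicate block. With that block, 7 of the 10 genes were called, 6 of them B6 higher and 1 CAST higher, against 42.7% of all tested genes, of which 21.8% had B6 higher and 20.9% CAST higher. The block added Chad, Epyc, Lum and Ogn. Of the 9 autosomal genes 6 were called with it, against 8635 of the 20682 autosomal genes tested. In edgeR's quasi-likelihood test with the block 7 of the 10 genes were also called, against 37.6% of all tested genes. Counted without a model, 5 of the 10 genes had the same direction in all 7 mice, against 22.6% of all tested genes. These were Bgn, Dcn, Prelp, Chad and Epyc, and B6 was higher in each, as it was in 12.9% of all tested genes. Of the 9 autosomal genes 4 kept their direction, against 4362 of the 20682 autosomal genes tested. All 10 genes had at least 10 counts in each mouse, as did only 15111 of the 21805 tested genes. The shares therefore also differ in depth, and a comparison at like depth was not made.

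Of the class I genes, Bgn had 17332 to 52017 B6 counts with a median of 37816, and 678 to 2702 CAST counts with a median of 1326. The B6 share was 94.9% in mouse 1, 96.2% in mice 2, 5 and 7, 96.9% in mouse 3, 95.8% in mouse 4 and 95.7% in mouse 8. The alleles did not overlap, and the mean B6 share was 96.0% ± 0.600 (SD, n = 7), with a log2 fold change of -4.55 ± 0.15 (SE, edgeR likelihood-ratio test, FDR 6.59e-210). A male carries a single X chromosome, so this difference does not compare 2 active copies in the same cells. X-linked genes together had 91.1% ± 0.468 B6 counts (SD, n = 7). Of the 34 X-linked genes that reached 1000 counts in each mouse, 12 had a lower mean B6 share than Bgn, and their median was 98.0%. Bgn held 4.72% of all CAST counts on X-linked genes, and why it had any was not tested. In 3 mice the total of Bgn was fractional, as happens where reads are divided between genes.

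Dcn had the largest allele difference among the 9 autosomal genes. Its B6 counts were 7279, 7161, 7346, 4141, 6294, 3283 and 5031 in mice 1, 2, 3, 4, 5, 7 and 8, and its CAST counts were 4710, 5100, 5432, 2711, 4608, 2226 and 3712 in the same order. B6 was higher in each of the 7 mice, and the B6 share lay between 57.5% and 60.7%, with a mean of 58.8% ± 1.39 (SD, n = 7). The B6 mean was 1.42-fold the CAST mean, at a log2 fold change of -0.49 ± 0.12 (SE, edgeR likelihood-ratio test, FDR 0.000308; exact sign-flip permutation p = 0.0156). The totals of Dcn were whole numbers in every mouse.

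Aspn, the remaining class I gene, had 358 to 919 B6 counts with a median of 549, and 308 to 1004 CAST counts with a median of 644. The CAST allele was higher in mice 1, 2, 3, 5 and 7, and the B6 allele in mice 4 and 8, with B6 shares from 43.1% in mouse 1 to 55.1% in mouse 4. The log2 fold change of 0.10 ± 0.19 (SE) did not pass (edgeR likelihood-ratio test, FDR 0.851, and 0.494 with the mouse as block). The sign-flip test did not pass either (exact permutation p = 0.422).

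Among the class II genes, Prelp differed between alleles and its neighbour Fmod did not pass. Prelp had 6735, 4812, 4959, 4263, 7745, 2578 and 3884 B6 counts in mice 1, 2, 3, 4, 5, 7 and 8, beside 5424, 3886, 3859, 3454, 5892, 1966 and 3054 CAST counts. The B6 count was higher in each of the 7 mice. The B6 share varied little, from 55.2% to 56.8%, with a mean of 56.0% ± 0.660 (SD, n = 7). Counting error alone would give an SD of 0.556 percentage points if each estimated count were 1 independent read, which is not known. The B6 mean was 1.27-fold the CAST mean (log2 fold change -0.32 ± 0.10, SE, edgeR likelihood-ratio test, FDR 0.0122; exact sign-flip permutation p = 0.0156). Part of its reads were divided with other genes, as the total was not whole in 4 mice, and 350 bases of its exons overlap the antisense gene Gm15851, which averaged 0.958 counts.

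Fmod had the most counts of the autosomal members, with 7239 to 23952 from B6 (median 18405) and 7554 to 23057 from CAST (median 18134). The B6 share was 50.7%, 50.1%, 50.4%, 49.9%, 51.0%, 48.9% and 47.8% in mice 1, 2, 3, 4, 5, 7 and 8, so that B6 was higher in 4 mice and CAST in 3. The mean share was 49.8% ± 1.10 (SD, n = 7) and the log2 fold change 0.03 ± 0.12 (SE, edgeR likelihood-ratio test, FDR 1.0). The sign-flip test did not pass either (exact permutation p = 0.703).

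Lum had 2692, 2560, 3763, 1452, 2533, 1455 and 2353 B6 counts in mice 1, 2, 3, 4, 5, 7 and 8, beside 2553, 2491, 3536, 1373, 2533, 1243 and 2114 CAST counts. The alleles were equal in mouse 5 and B6 was higher in the other 6 mice. The mean B6 share was 51.7% ± 1.30 (SD, n = 7). The log2 fold change of -0.08 ± 0.15 (SE) did not pass in edgeR's likelihood-ratio test (FDR 0.850), and passed with the mouse as block (FDR 0.0419). For Lum the exact sign-flip permutation p was 0.0312.

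Omd had the fewest counts of the 10 genes, 135 to 472 per mouse. Its B6 share was 48.4%, 53.0%, 52.9%, 55.3%, 66.9%, 48.4% and 49.0% in mice 1, 2, 3, 4, 5, 7 and 8. Mouse 5 lay far from the others, and the difference between alleles did not pass (log2 fold change -0.15 ± 0.20, SE, edgeR likelihood-ratio test, FDR 0.737, and 0.404 with the mouse as block). The sign-flip test did not pass either (exact permutation p = 0.188). The SD of the share, 6.54 percentage points, compares with 3.06 from counting error alone. Such an excess would not be limited to Omd if each estimated count were an independent read, which is not known. The Wilson intervals of the B6 share of Fmod were 50.5% to 51.4% in mouse 5 and 47.2% to 48.4% in mouse 8. Those of Dcn were 59.8% to 61.6% in mouse 1 and 56.6% to 58.3% in mouse 3. The members were not ranked by this excess.

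The class III genes are both of low level. Epyc had 322, 272, 375, 133, 497, 142 and 286 B6 counts in mice 1, 2, 3, 4, 5, 7 and 8, beside 199, 249, 342, 132, 384, 116 and 231 CAST counts. B6 was higher in every mouse (exact sign-flip permutation p = 0.0156). In mouse 4 it was higher by less than 1 count, at a B6 share of 50.1%, while mouse 1 had 61.8%. The log2 fold change was -0.25 ± 0.16 (SE), with an FDR of 0.275 without the block and 0.0056 with it (edgeR likelihood-ratio test). Without mouse 3 or without mouse 4 the first of these fell to 0.193 and 0.187, so the call turned on single mice. Of the exons of Epyc, 1041 bases overlap the noncoding RNA gene Gm10754 on the opposite strand, which averaged 0.0936 counts. Ogn leaned to the CAST allele, which was higher in 5 of 7 mice, with B6 shares from 37.0% in mouse 4 to 51.5% in mouse 5. Its log2 fold change of 0.23 ± 0.17 (SE) had an FDR of 0.393 without the block and 0.0534 with it (edgeR likelihood-ratio test), and the exact sign-flip permutation p over the 7 mice was 0.0781.

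Chad, the class IV gene, showed the smallest difference that kept its direction in all mice. It had 2393 to 6111 B6 counts with a median of 3696, and 2168 to 5403 CAST counts with a median of 3540. The ranges overlapped between mice, but in each mouse B6 was higher, at shares of 52.4%, 51.1%, 51.0%, 50.5%, 53.1%, 52.5% and 52.1% in mice 1, 2, 3, 4, 5, 7 and 8. The log2 fold change of -0.08 ± 0.10 (SE) did not pass in edgeR's likelihood-ratio test (FDR 0.666) and passed with the mouse as block (FDR 0.000678). The exact sign-flip permutation p was 0.0156.

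The host genes that enclose 4 of the members were measured beside them, because their reads come from the opposite strand of the same stretch of DNA. Acsf2, around Chad, had 307 to 936 counts per mouse and a B6 share of 65.6% ± 2.20 (SD, n = 7), with a log2 fold change of -0.91 ± 0.10 (SE, edgeR likelihood-ratio test, FDR 1.16e-19). B6 was thus higher in every mouse for both Acsf2 and Chad, and no exon bases are shared between them. Cenpp, around Aspn, Omd and Ogn, averaged 50.4 counts, and its B6 share was 60.5% ± 9.16 (SD, n = 7; FDR 0.0951, edgeR likelihood-ratio test, not passed without mouse 2, 3, 7 or 8). Its exons share 7 bases with Aspn and 0 with Omd and Ogn. The library kit marked the strand, but whether the counting used it is not given in the sources used here.

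Neighbours within a cluster were then compared directly, as the difference between 2 genes in the log2 ratio of CAST to B6 counts in each mouse. There were 7 pairs. Dcn and Lum, whose starts are 85519 bases apart, differed by -0.42 ± 0.10 (SD, n = 7), with the lower ratio for Dcn in each of 7 mice (exact permutation p = 0.0156, adjusted over the pairs p = 0.0547). Fmod and Prelp, 126950 bases apart, differed by 0.36 ± 0.08 (SD, n = 7), with the higher ratio for Fmod in each of 7 mice (exact permutation p = 0.0156, adjusted p = 0.0547). In each of these pairs the gene with the allele difference lay beside one with nearly equal alleles. None of the 7 pairs passed an adjusted p of 0.05. Dcn with Lum and Fmod with Prelp already had the smallest p that 7 mice allow, 0.0156. A larger difference in these pairs could not have lowered their adjusted p, so not passing says nothing of its size.

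The other pairs were more spread. Dcn and Epyc differed by -0.24 ± 0.22 and Ogn and Omd by 0.44 ± 0.42 (SD, n = 7 each), each in the same direction in 6 of 7 mice (exact permutation p = 0.0312, adjusted p = 0.0547). Omd and Ogn, 25584 bases apart, had mean ratios on opposite sides of 0, at -0.20 for Omd and 0.24 for Ogn. Epyc and Lum (exact permutation p = 0.0625), Aspn and Omd (exact permutation p = 0.125) and Aspn and Ogn (exact permutation p = 0.484) did not pass before adjustment.

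**Figure D3:**
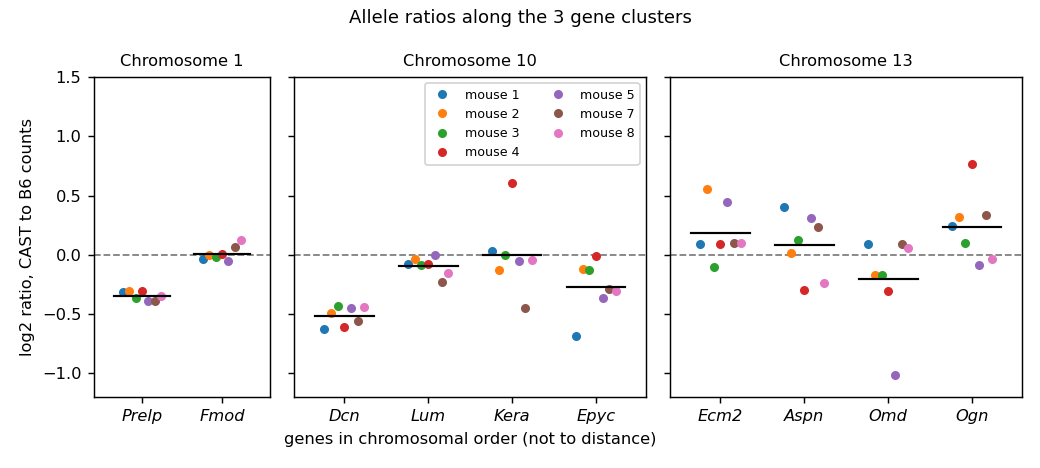
Log2 ratio of CAST to B6 counts in each of the 7 mice for genes of the clusters on chromosomes 1, 10 and 13, in chromosomal order and not spaced by distance; values below 0 have more B6 counts. Points are mice and black lines are means over the 7 mice. Prelp and Dcn lie below 0 in every mouse beside Fmod and Lum near 0, and Omd in mouse 5 lies at -1.01.

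A further 8 genes of the same family were tested. In edgeR's likelihood-ratio test 4 of the 8 were called, 3 with CAST higher and 1 with B6 higher, against 32.6% of all tested genes. With the mouse as block 7 of 8 were called, against 42.7% of all tested genes. Podnl1, a class V gene akin to podocan, had 357 to 992 CAST counts and 254 to 702 B6 counts, and CAST was higher in each of 7 mice (log2 fold change 0.51 ± 0.10, SE, FDR 6.62e-06). Its relative Podn was called narrowly (0.25 ± 0.13, SE, FDR 0.183) with 133 to 335 counts per mouse, and was not called without mouse 1, 3, 4, 5, 7 or 8 in turn, nor in 3 other settings. Nyx, an X-linked gene known from the retina and the 1 called with B6 higher, had 8 to 24 counts per mouse, nearly all B6. As for Bgn, the call of Nyx in males does not compare 2 active copies. Optc, an eye protein gene beside Prelp, had 2 to 14 counts per mouse (FDR 0.136), too few to read a share from, and was not called without mouse 2, 4 or 5, nor by DESeq2 or the blocked quasi-likelihood fit (FDR 0.306).

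The other family genes did not pass without the block. Ecm2, next to Aspn, had a log2 fold change of 0.20 ± 0.13 (FDR 0.323, and 0.176 without mouse 3), and Chadl, the relative of Chad, 0.20 ± 0.15 (FDR 0.392). Tsku, a secreted regulator of signalling, had -0.12 ± 0.10 (FDR 0.492), where ± is the SE and the FDR that of edgeR's likelihood-ratio test. With the mouse as block all of these passed, at FDR 0.0696 for Ecm2, 0.000571 for Chadl and 0.0295 for Tsku. Kera, the cornea gene that lies between Lum and Epyc, had a B6 share of 50.1% ± 5.42 (SD, n = 7) and did not pass in either fit (FDR 1.0).

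The enzymes and transporters that build or trim these proteoglycans were followed as a list of 16 genes, and 3 of them were called, 2 with B6 higher and 1 with CAST higher, against the 32.6% of all tested genes. With the mouse as block 7 of the 16 were called, near the 42.7% of all tested genes. Tpst1, which adds sulfate to tyrosines such as those in Fmod, had 445, 430, 492, 256, 481, 224 and 337 B6 counts in mice 1, 2, 3, 4, 5, 7 and 8, beside 335, 303, 322, 171, 312, 142 and 205 CAST counts. B6 was higher in every mouse, at a log2 fold change of -0.56 ± 0.10 (SE, edgeR likelihood-ratio test, FDR 8.45e-07). Xylt2, which starts the sugar chain on the core protein, was also B6 higher in 7 of 7 mice (-0.34 ± 0.10, SE, FDR 0.00503), with B6 shares from 52.5% to 65.8%. Slc26a2, the sulfate transporter on which chain sulfation in cartilage depends, was CAST higher in 7 of 7 mice (0.34 ± 0.11, SE, FDR 0.00904), though its reads were partly divided with other genes in all 7.

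Between mice, the members differed in how much their level varied. The coefficient of variation of the CPM over the 7 mice was 9.72% for Bgn and 9.75% for Chad, and Omd and Aspn varied most, at 25.4% and 27.3%. Which member was steadiest depended on the scaling, since on plain totals Fmod had 10.8%, against 14.7% with TMM, beside 10.9% for Bgn and 11.6% for Chad. Omd and Aspn varied most on plain totals too, at 27.7% and 29.2%. Bgn had 1591, 1374, 1422, 1633, 1383, 1239 and 1349 CPM in mice 1, 2, 3, 4, 5, 7 and 8. Aspn had 39.4, 53.5, 67.2, 36.9, 29.8, 53.7 and 43.9 CPM in the same order. With TMM scaling mouse 4 was the highest for Bgn and the second lowest for Aspn. Lum had 157, 177, 255, 152, 129, 186 and 193 CPM, with mouse 3 highest and mouse 5 lowest, as for Aspn.

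**Figure D4:**
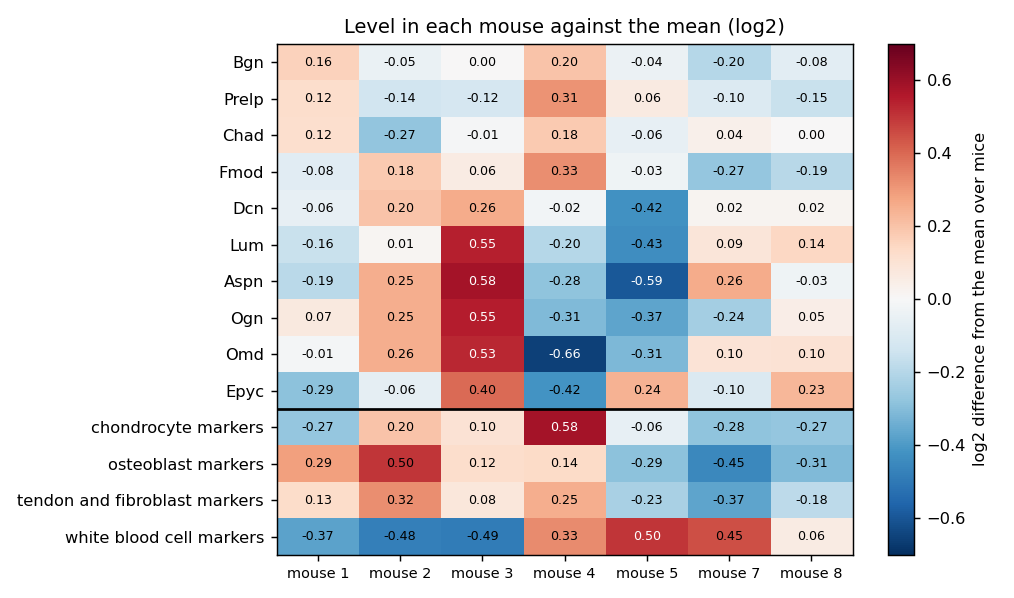
Log2 difference of each gene's TMM-scaled level in a mouse from its mean over the 7 mice, as a heat map with the value in each cell; the rows below the line show the summed level of 4 lists of cell type markers. Red is above and blue below the mean. Mouse 3 is 0.53 to 0.58 above the mean for Lum, Aspn, Ogn and Omd, and mouse 4 is highest for Bgn, Prelp, Chad and Fmod (on plain totals, mouse 1 is highest for Bgn, Prelp and Chad).

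In mouse 3 each of Dcn, Lum, Aspn, Ogn, Omd and Epyc had its highest level, with TMM scaling and on plain totals alike. In mouse 4 each of Bgn, Prelp, Chad and Fmod was highest with TMM scaling, where that mouse had the lowest factor, 0.884, but on plain totals Bgn, Prelp and Chad were highest in mouse 1 and only Fmod in mouse 4. The correlation between members was tested over the 7 mice on log2 levels, for all 45 pairs. None passed an adjusted p of 0.05, and 7 pairs had an unadjusted p under 0.05 for both Pearson's r and Spearman's rho. The smallest p belonged to Aspn and Dcn (r = 0.91, exact permutation p = 0.00218, adjusted p = 0.0982; rho = 0.93, exact permutation p = 0.00675, adjusted p = 0.179), and r was 0.73 without the 2 mice farthest from the median of Aspn. Aspn and Lum had r = 0.93 (exact permutation p = 0.00476, adjusted p = 0.107) and rho = 0.89 (exact permutation p = 0.0123, adjusted p = 0.179), and r was 0.72 without the same 2 mice. Omd and Prelp ran in opposite directions (r = -0.86, exact permutation p = 0.0121, adjusted p = 0.138; rho = -0.82, exact permutation p = 0.0341, adjusted p = 0.192), with r = -0.72 without the 2 mice farthest from the median of Omd.

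Each member was also set beside the summed level of 9 lists of cell type markers, 90 relations in all, of which 1 passed an adjusted p of 0.05 with TMM scaling and none on plain totals. Fmod had 1162, 1391, 1278, 1537, 1202, 1018 and 1071 CPM in mice 1, 2, 3, 4, 5, 7 and 8, and the 10 chondrocyte markers summed to 64395, 89255, 83364, 116315, 74600, 63847 and 64358 CPM. The mice stood in the same order on both measures (rho = 1.0, exact permutation p = 0.000397, adjusted p = 0.0357), with r = 0.96 (exact permutation p = 0.000198, adjusted p = 0.0179) and r = 0.94 without the 2 mice farthest from the median of Fmod. On plain totals the relation did not pass (r = 0.87, exact permutation p = 0.00337, adjusted p = 0.304; rho = 0.93, exact permutation p = 0.00675, adjusted p = 0.607). Col2a1, the gene of type II collagen, made up 67.6% of the summed markers, so the sum was mostly that gene. The single markers differed, with r between -0.03 for Col9a1 and 0.97 for Col2a1 in these 7 mice. In settings chosen after the data were seen, the relation did not pass without Col2a1 (r = 0.79, exact permutation p = 0.0296, adjusted p = 0.598), nor with equal weight for each marker (r = 0.62, exact permutation p = 0.134, adjusted p = 0.751). The next was Ogn with the white blood cell markers (r = -0.92, exact permutation p = 0.00496, adjusted p = 0.223; rho = -0.96, exact permutation p = 0.00278, adjusted p = 0.125). Both levels of a relation come from the same library, and whether the makeup of the dissected tissue moved them was not tested.

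**Figure D5:**
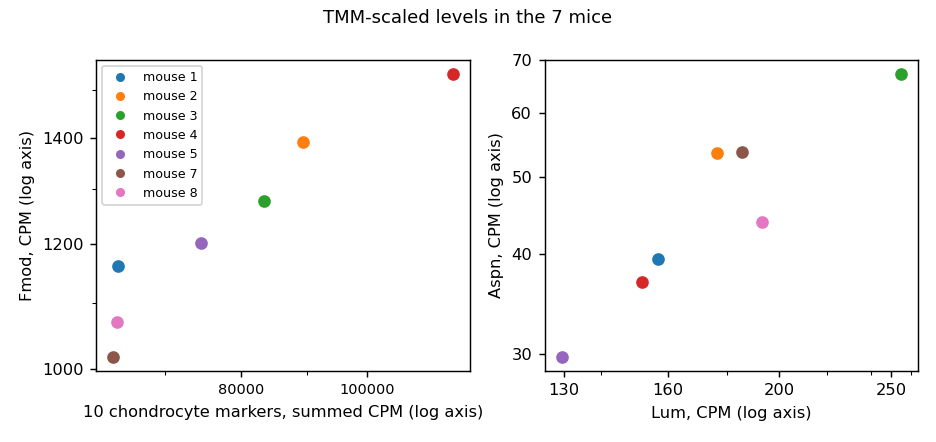
TMM-scaled levels in the 7 mice on log axes in CPM, with Fmod against the sum of 10 chondrocyte markers on the left and Aspn against Lum on the right. Each point is a mouse. Fmod rises from 1018 CPM in mouse 7 to 1537 CPM in mouse 4 in the same order as the markers, of whose sum Col2a1 makes up 67.6%, an order that plain totals do not keep, and Aspn and Lum are both lowest in mouse 5 and highest in mouse 3.

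For each member the gene with the most similar level over the 7 mice was sought among 9932 genes that had 100 counts or more per mouse. The most similar were Bcl9l for Bgn (r = 0.99), Vsig10 for Dcn (r = 0.97), Mylk for Aspn (r = 0.98), Bcar1 for Fmod (r = 0.99) and Tmem100 for Lum (r = 0.99). For the other members they were Raver1 for Prelp (r = 0.97), Tmem167 for Omd (r = 0.99), Ggnbp2 for Epyc (r = 0.99), Gja1 for Ogn (r = 0.97) and Vamp2 for Chad (r = 0.95). Each is the best of all these genes over 7 points, so these values are given as a description. No gene was the most similar to more than 1 member.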

How the data were processed

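Total RNA of growth plates from 7 male F1 mice was sequenced after depletion of ribosomal RNA with a stranded kit. The authors built a transcriptome of both strains on mm10, aligned reads to it with Bowtie at up to 3 mismatches, and deposited estimated counts per gene and allele from EMASE, which divides reads that fit several genes or both alleles. The values are not normalized and can be fractions. Their totals, 14098019 to 37849667, exceed the average number of read pairs in the labels, and the unit counted is not given in the sources used here. Intervals therefore cover counting error only and may be too narrow, and the SDs given for counting error alone may be too small.

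Counts were rounded, and the test covered 21805 of 43346 genes, those in which each mouse had a value above 0 for 1 allele or both, among them 1406 with a mean under 1 count. CAST and B6 columns were compared with edgeR 4.0.16 (R 4.3.3) using TMM factors, estimateDisp, glmFit and glmLRT, called at an FDR under 0.20, Benjamini-Hochberg adjusted over all tested genes. Standard errors are the fold change over the root of the test statistic. Sign-flip tests used log2 ratios with a pseudocount of 0.5 (Python 3.11.15, scipy 1.17.1) and Pearson and Spearman tests enumerated all pairings. Totals were taken as whole to a tolerance of 0.0001. Shares of single mice have 95% Wilson intervals. Names and exon lengths came from GENCODE M21. Alternatives were a mouse block, DESeq2 1.42.0, edgeR's quasi-likelihood test, other scalings, filters, thresholds, lengths and pseudocounts, and each mouse left out. Fits were also run on simulated counts of genes averaging at least 10 counts, which does not cover genes of lower count.

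The pairing is that of both alleles of an animal. After removal of the allele means, the alleles of a mouse correlated at 0.246 on average and at least 0.107 over 15111 genes, and alleles of different mice at up to 0.265. The labels name no batch, and do not say more of the mice than their number, so p-values measure the spread between these samples. The genes and lists were chosen with earlier results of these data known. All members and 8 other family genes are named, and of the enzyme list those called, with the host genes and the most similar gene of each member.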

Additional observations from a re-analysis of the deposited data

Results flagged for a closer look

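Omd was the only one of 20 sets of 7 values, the level and the allele ratio of each member, in which a mouse stood far from the others, and chance would give about 1. In mouse 5 its log2 ratio of CAST to B6 counts was -1.01, while the other 6 mice lay between -0.31 and 0.09, so that the gap to the nearest mouse was 0.637 of the whole range, above Dixon's critical value for 7 values. The mouse had 241 B6 and 119 CAST counts, a B6 share of 66.9% (95% Wilson interval 61.9% to 71.6%), and the cause was not tested. Without mouse 5 the log2 fold change of Omd was -0.04.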

How the results depend on the processing

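With the mouse as replicate block, 7 of the 10 genes were called in the likelihood-ratio test and 7 in the quasi-likelihood test, against 3 without it, and the calls of Chad, Epyc, Lum and Ogn rest on the block. The quasi-likelihood test, DESeq2, both other scalings, both other filters and an FDR under 0.05 also gave 3. Autosomal genes alone gave 2 of 9, against 6313 of 20682 genes, and leaving out each mouse gave 3 to 4. Of all 21805 tested genes, 6779 were called in the quasi-likelihood test, 6680 by DESeq2, and 7121 and 7110 with the other scalings. Leaving out each mouse gave 6382 to 6931 calls among 21875 to 22490 genes, and no filter gave 7201 of 29579. No member changed the direction of its allele difference in any setting. Kera, at a log2 fold change of -0.013, turned to 0.0076 in the likelihood-ratio test and 0.0073 in the quasi-likelihood test with the block, and ranged from -0.089 to 0.042 with a mouse left out. Over all tested genes the calls ran from 4816 at an FDR under 0.05 to 9315 with the block, and 5602 of 15111 genes were called with at least 10 counts per mouse. Relative to the chondrocyte markers, which puts the same divisor under every gene, 14 of 45 member pairs had an adjusted p under 0.05 for Pearson's r and 3 for Spearman's rho, against 0 on TMM-scaled levels. Of the 90 relations with marker lists, 1 passed on both measures with TMM scaling, and 0 on plain totals, with equal weight for each marker or without the most abundant marker of each list (the last 2 were chosen after the data were seen); without it, Ogn with the white blood cell markers passed on r alone (adjusted p = 0.0357, exact permutation). Leaving 3 abundant noncoding RNAs out of the total raised the level of Fmod from 374 to 466 CPM per kb and those of the others in like measure, and 7 of 9 neighbouring pairs also differed with the longest transcript as length, while scaling cannot change a difference between genes of the same mouse. Depth limits Omd, Epyc and Ogn, whose counts in single mice were as low as 135, 258 and 328.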
